A study of Diplotaxodon limnothrissa and Petrotilapia genalutea and Rhamphochromis longiceps with 60 samples.

Results

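The livers of a pair of open-water cichlid predators of Lake Malawi were compared, the deep-water zooplankton feeder Diplotaxodon limnothrissa (DL) and the fish eater Rhamphochromis longiceps (RL). The comparison rests on 5 liver RNA libraries, 3 of DL and 2 of RL, out of 23 liver and muscle RNA libraries analysed here and 60 RNA and DNA methylation samples in the series. All were bulk libraries of homogenised liver from wild-caught adult male fish that received no treatment and were bought dead from fishermen, so that species, diet, depth and circumstances of capture cannot be told apart. The third RL liver of the labels was not analysed here. Livers of the rocky-shore species Maylandia zebra (MZ, 3 libraries) and Petrotilapia genalutea (PG, 3 libraries) entered the same fit and served to place the DL and RL values. Expression is given in TPM, a length-corrected share of each library's RNA that has the same sum in every library. The paper reports the average depth of its RNA libraries, but TPM retains no read counts, so the reads behind a single value are unknown. A gene was tested where 2 or more of the 5 libraries reached 1 TPM, which left 14432 of 29676 genes.

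The vertebrate liver secretes most plasma proteins, including clotting factors, complement and the apolipoproteins that carry fat. It also stores and releases glucose, builds and burns fatty acids, breaks down amino acids and modifies foreign compounds. Fatty acid synthesis is known to rise with feeding and glucose release with fasting, and hepatocytes supply most of the RNA of a liver homogenate. In many bony fishes islands of exocrine pancreas lie within the liver.

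All 5 libraries carried the hepatocyte markers. The summed level of the 7 hepatocyte markers in the table (apob, tf, fgb, fgg, hnf4a, rbp4, g6pc) was 31932, 29276 and 35861 TPM in the 3 DL livers and 11344 and 21902 TPM in the 2 RL livers, against 106 to 452 TPM in DL and RL muscles. The sums were thus higher in every DL liver than in either RL liver. Of the 7 markers, 5 did not overlap between DL and RL, against 31.3% of all genes tested, while hnf4a and rbp4 did. In a bulk sample, fewer hepatocytes and less of this RNA per hepatocyte cannot be told apart. TPM also has a fixed sum, of which the identical rows described below held 38.9 and 32.3% in RL and 11.4 to 18.2% in DL. The part of those rows in the lower RL sums was not tested. The 3 exocrine pancreas markers summed to between 212 and 302 TPM in the DL livers and to 652 and 239 TPM in the RL livers. Most of it was cpb1, a pancreatic carboxypeptidase, which overlapped between DL and RL, as did ptf1a. The third, pla2g1b, went the other way without overlap, at 22.9, 21.1 and 25.0 TPM in DL and 15.5 and 4.62 TPM in RL. The skeletal muscle markers actn3 and mybpc2 summed to 23.7 TPM in DL library 5 and to at most 1.7 TPM in the other 4 livers. Macrophage markers summed to 35.7 to 111 TPM in DL and to 43.6 and 48.9 TPM in RL, and bile duct markers to 43 to 113 TPM in DL and to 29.2 and 40.9 TPM in RL. Of the 7 endocrine pancreas markers, ins, gcg, neurod1 and pcsk2 were listed at 0 TPM in all 5 livers.

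Libraries were more alike within a species than between species. Spearman's coefficient over 29676 genes was 0.877 to 0.889 for the 4 pairs of livers of the same species and 0.851 to 0.864 for the 6 pairs of a DL and an RL liver. Genes more than 1 apart on the log2(TPM + 1) scale numbered 2415 to 2909 in pairs of one species and 2544 to 4946 in pairs across species, so the ranges overlapped on this count.

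One feature of the table moved with the species and touches every value. Of the genes tested, 199 fell into 49 sets of rows with identical values in all 11 livers, all of them LOC identifiers without a name, and kallisto divides the reads of identical transcripts among the copies. All identical rows together held 11.4, 18.2 and 15% of TPM in the 3 DL livers against 38.9 and 32.3% in the 2 RL livers, with MZ at 28.5 to 38.4% and PG at 19.4 to 21.6%. Of these sets 2, with 8 rows in all, alone accounted for 8.19 to 16.3% of TPM in DL and 33.8 and 28.7% in RL. Since TPM has a fixed sum, the other genes share what is left, and the median log2 difference of all genes tested was 0.29 in favour of DL. After the identical rows were left out and the values rescaled, this median was -0.02. It was 0.01 after quantile normalization and 0.03 after median-ratio scaling. Differences below are given as deposited, and are best read against 0.29.

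**Figure D1:**
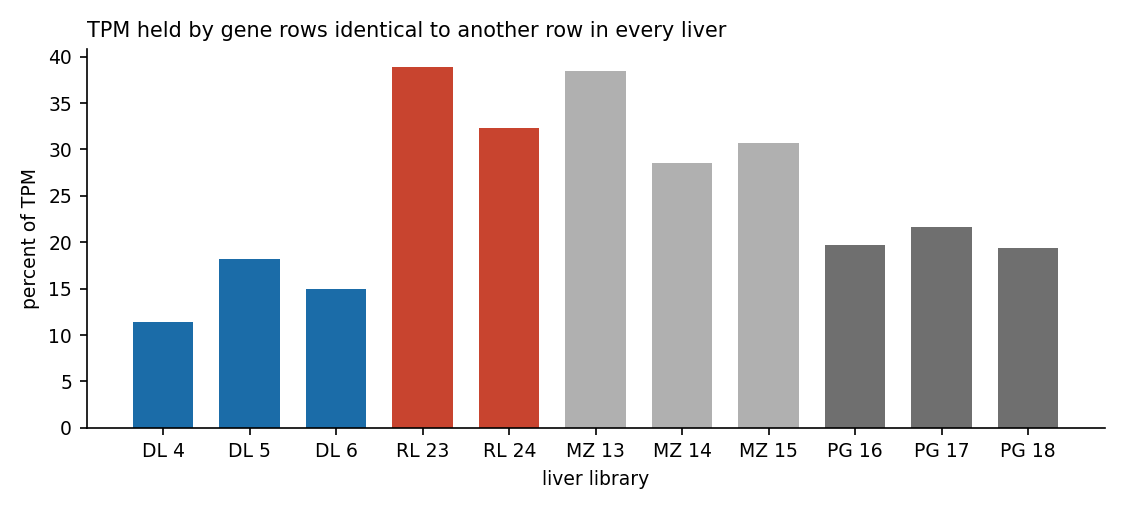
Percent of each liver library's TPM held by gene rows whose values repeat those of another row in all 11 livers, one bar per library, coloured by species (DL blue, RL red, MZ light grey, PG dark grey). The 3 DL bars lie between 11.4 and 18.2%, and the 2 RL bars at 38.9 and 32.3%.

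Of the 14432 genes tested, 159 (1.1%) differed between DL and RL livers at an adjusted p under 0.01 (limma, Benjamini-Hochberg). Of these 84 were higher in DL (0.582% of genes tested) and 75 higher in RL (0.520%). At an adjusted p under 0.05 the count was 401 (2.78%), 239 higher in DL (1.66%) and 162 higher in RL (1.12%). The DL and RL livers did not overlap in any of the 159 genes, as against 31.3% of all genes tested. The 159 were chosen by these same values, so this is a description and not a test. The size of a called difference ran from 1.28 to 9.01 on the log2 scale, with a median of 3.06. The split by direction depended on the scaling: 77 of 179 called genes were higher in DL after quantile normalization, 65 of 153 after median-ratio scaling and 53 of 122 after the identical rows were left out. The count rested on both RL livers, with 29 genes called without RL library 23 and 44 without RL library 24, where the remaining RL liver was assumed to vary like the livers of the other species. A fit of the 5 libraries alone called 59.

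**Figure D2:**
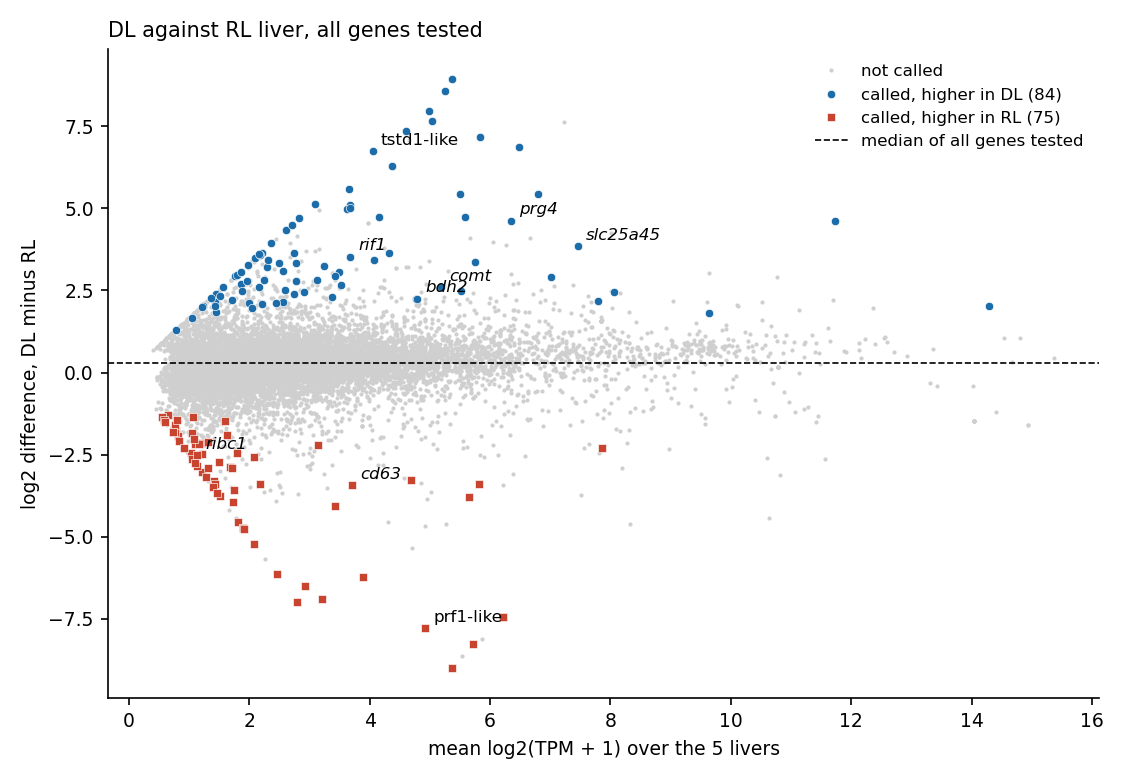
Log2 difference, DL minus RL, against the mean log2(TPM + 1) of the 5 livers for the 14432 genes tested. Blue circles are the 84 genes called higher in DL, red squares the 75 called higher in RL, grey points the genes not called, and the dashed line the median of 0.29. Called genes occur at all levels, and most of the largest differences have no symbol.

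Genes without a symbol made up most of the calls. LOC identifiers were 143 of the 159 called genes (89.9%) and 54.5% of the genes tested, and the files do not pair them with names. Among the called genes 11 LOC rows were one identical set and another 2 were a second, so that the 159 rows held 148 distinct profiles, 84 higher in DL and 64 higher in RL. A near-identical copy, LOC112433134, was at 0, 5.33 and 22.9 TPM in the DL livers and at 1965 and 1352 TPM in the RL livers (log2 difference -8.26 ± 1.16 SE, adjusted p = 0.00266). How much of this signal belongs to any one of the copies is uncertain, since reads are shared among them. LOC111500966 had the largest difference in the same direction, at 1.16, 0.02 and 16.5 TPM in DL livers and at 1412 and 2147 TPM in RL livers (-9.01 ± 0.93, adjusted p = 0.000282). Its level in the 6 MZ and PG livers did not exceed 2.60 TPM, so the RL livers stood apart from all other livers. In muscle it varied widely within DL, at 770, 44.2 and 0.02 TPM, and was at 4207, 1751 and 2388 TPM in RL (adjusted p = 0.221).

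In the opposite direction, LOC101474941 was at 330, 487 and 748 TPM in DL livers and listed at 0 TPM in both RL livers (8.95 ± 0.40 SE, adjusted p = 9.23e-07). Its MZ and PG values ran from 246 to 697 TPM, so RL alone was listed at 0 TPM. LOC112432458 was at 360, 546 and 347 TPM in DL livers and at 0.15 and 0 TPM in RL livers (8.58 ± 1.46, adjusted p = 0.00839), while the MZ and PG livers ranged widely, from 0.28 to 141 TPM. This call did not hold without either RL liver (adjusted p = 0.078 without library 23 and 0.071 without library 24). In all, 4 genes were listed at 0 TPM in both RL livers and at 10 TPM or more in every DL liver, of which 3 were also at 0 TPM in all MZ and PG livers. The reverse held for 8 genes with 7 distinct profiles, and 7 of the 8 genes were called.

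Position among the 4 species showed which species stood apart. Of the 84 genes higher in DL, every DL liver lay above all 8 other livers in 57, and both RL livers lay below all 9 others in 33, with 9 genes counted under both and 3 under neither. Of the 64 distinct profiles higher in RL, both RL livers lay above all others in 55, every DL liver lay below all others in 14, with 8 under both and 3 under neither. Over the 14282 distinct profiles tested, every DL liver lay above all others in 9.77% and below all others in 0.574%, and both RL livers above in 2.86% and below in 3.31%. The called genes were chosen by the DL and RL values and filtered on them, so their arrangement is a description without a test.

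Among the 6560 tested genes with a symbol, 16 were called, 9 higher in DL and 7 higher in RL. The largest was prg4, which encodes proteoglycan 4 (lubricin), a secreted lubricating glycoprotein. Its level was 303, 199 and 410 TPM in the 3 DL livers and 6.80 and 16.9 TPM in the 2 RL livers, with no overlap. The log2 difference was 4.63 ± 0.51 (SE, adjusted p = 0.000424), 25.6-fold on the means. The 6 MZ and PG livers lay between 94.1 and 428 TPM, so that RL was low against all 3 other species. Among the genes with a symbol, prg4 was the one whose call was lost in the fewest alternatives, only without RL library 23 (adjusted p = 0.0128).

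The mitochondrial carrier gene slc25a45 showed the reverse arrangement. It was at 392, 563 and 602 TPM in DL livers and at 25.4 and 45.9 TPM in RL livers (3.86 ± 0.49, adjusted p = 0.00141), and at 5.82 to 21.6 TPM in MZ and PG livers. The DL livers therefore stood above every other liver, and the RL livers lay second. In muscle it was at 16.6 to 23.4 TPM in DL and 8.75 to 16.3 TPM in RL (adjusted p = 0.129).

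In rif1 and nthl1 DL stood apart as well. The replication timing and break repair factor rif1 was at 48.2, 18.2 and 40.1 TPM in DL livers and at 1.49 and 2.45 TPM in RL livers (3.53 ± 0.46, adjusted p = 0.00163), with MZ and PG at 1.0 to 4.21 TPM. The base excision repair glycosylase nthl1 was at 8.11, 10.2 and 16.5 TPM in DL livers and at 1.32 and 0.95 TPM in RL livers (2.51 ± 0.32, adjusted p = 0.00142). No MZ or PG liver exceeded 0.83 TPM of nthl1. In muscle nthl1 was again higher in every DL sample, at 7.83, 10.01 and 14.1 TPM against 1.36, 2.61 and 3.06 TPM in RL (1.80, adjusted p = 0.0145), a difference that passed 0.05 but not 0.01.

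Enzymes of small-molecule metabolism made up 3 of the genes higher in DL. Catechol-O-methyltransferase, comt, which methylates catecholamines and catechol oestrogens, was at 53.5, 80.4 and 94.5 TPM in DL livers and at 12.9 and 10.1 TPM in RL livers (2.60 ± 0.41, adjusted p = 0.00586). The short-chain dehydrogenase gene bdh2 was at 40.4, 40.9 and 78.2 TPM in DL and at 10.4 and 9.30 TPM in RL (2.25 ± 0.39, adjusted p = 0.00956). For both genes the RL livers lay below all MZ and PG livers, which held 27.1 to 57.6 TPM of comt and 22.97 to 64.2 TPM of bdh2. The choline-specific phosphodiesterase gene enpp6 was at 9.46, 11.5 and 16.0 TPM in DL and at 1.203 and 1.82 TPM in RL (2.39 ± 0.35, adjusted p = 0.00328). Here the MZ and PG livers, at 1.06 to 2.92 TPM, lay with RL.

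The remaining genes higher in DL were cdk15, of the cyclin-dependent kinase family, and c2cd4c, of the C2 domain family. The level of cdk15 was 33.1, 23.8 and 15.9 TPM in DL and 1.79 and 2.55 TPM in RL (2.94 ± 0.45, adjusted p = 0.00465), and MZ and PG livers, at 12.9 to 35.7 TPM, overlapped DL. The level of c2cd4c was 3.97, 2.41 and 5.15 TPM in DL against 0.11 and 0.21 TPM in RL (2.02 ± 0.28, adjusted p = 0.00235), with MZ and PG at 0.03 to 0.37 TPM. Of the 9 genes, rif1, slc25a45, nthl1, enpp6 and c2cd4c were thus high in DL alone, whereas prg4, cdk15, comt and bdh2 were low in RL alone.

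Higher in RL, cd63 was the one gene with a symbol whose mean reached 10 TPM. It encodes a tetraspanin of late endosomes and lysosomes. Its level was 5.52, 2.34 and 4.96 TPM in DL livers and 58.9 and 48.3 TPM in RL livers (-3.42 ± 0.52, adjusted p = 0.0042), 12.5-fold on the means. All MZ and PG livers fell between, at 8.93 to 35.2 TPM. In muscle it was at 88.0 to 130 TPM in DL and 101 to 147 TPM in RL (adjusted p = 0.785).

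The other 6 lay under 10 TPM on average, and are named because every called gene with a symbol is given. The membrane protein gene tmem233 was at 0, 0.35 and 0 TPM in DL and at 3.41 and 14.6 TPM in RL (-2.91 ± 0.41, adjusted p = 0.0028). It was listed at 0 TPM in all MZ and PG livers, whose lack of spread entered this SE. In the fit of DL and RL alone the call was lost. In muscle tmem233 was at 23.7 to 66.5 TPM in every DL and RL library. The ciliary microtubule gene ribc1 was at 0, 0 and 0.31 TPM in DL and 7.10 and 3.75 TPM in RL (-2.50 ± 0.27, adjusted p = 0.000368), with at most 0.15 TPM in MZ and PG. The calcium and calmodulin dependent phosphodiesterase gene pde1b was at 0.28, 0.23 and 0 TPM in DL and at 4.99 and 6.10 TPM in RL (-2.49 ± 0.33, adjusted p = 0.00184).

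For scrn2, of the secernin family, the MZ and PG livers, at 2.63 to 4.73 TPM, fell between DL at 0.14, 0.74 and 1.76 TPM and RL at 6.28 and 11.7 TPM (-2.45 ± 0.41, adjusted p = 0.00776). The cytokine gene tnfsf12 (TWEAK) was at 0.30, 0.53 and 0.48 TPM in DL and 2.16 and 3.32 TPM in RL (-1.37 ± 0.24, adjusted p = 0.00956). The open reading frame lg23h1orf112 was at 0.11, 0.30 and 0.07 TPM in DL and 2.08 and 2.27 TPM in RL (-1.46 ± 0.22, adjusted p = 0.0047). In both of these low genes the RL livers lay above all other livers.

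**Figure D3:**
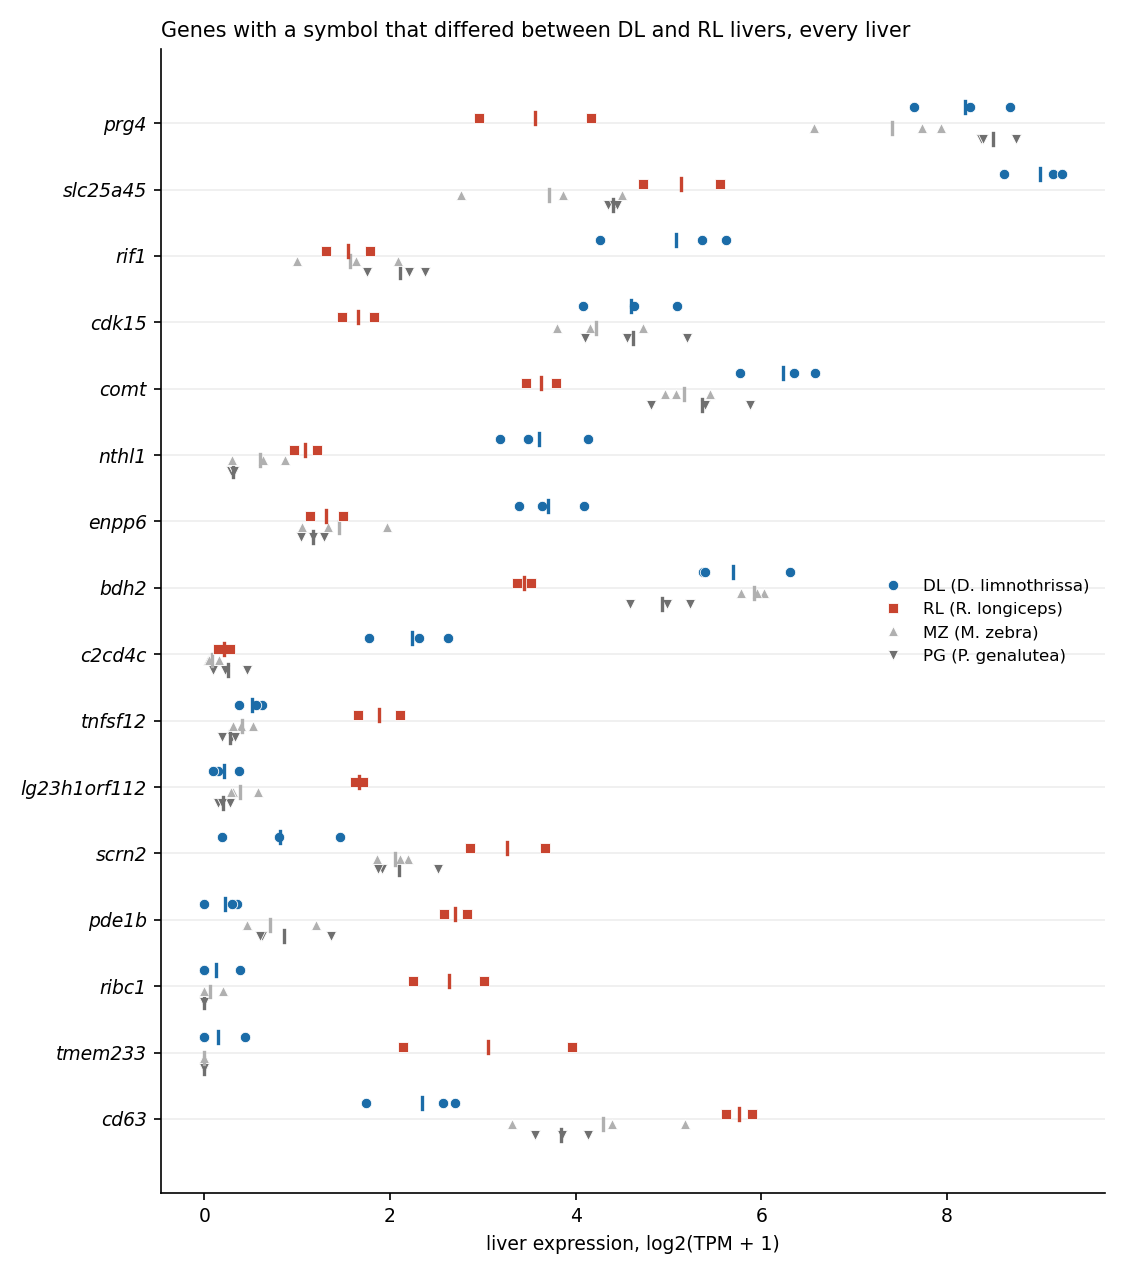
Liver expression, log2(TPM + 1), of the 16 called genes with a symbol, one marker per library and a vertical bar at each species mean (DL blue circles, RL red squares, MZ light and PG dark grey triangles), ordered by the DL minus RL difference. MZ and PG lie near RL for rif1, nthl1 and enpp6, near DL for cdk15 and prg4, and between for cd63 and scrn2.

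All 16 kept their direction in every alternative in which they were tested. As their DL and RL livers did not overlap, only the other scalings could have turned a direction. In the fit of the 5 libraries alone, only prg4 of the 16 was still called. Without RL library 23, 11 of them could be tested, of which 0 were called at 0.01 and 6 had an adjusted p under 0.05. Without RL library 24, the same number could be tested, of which prg4 and slc25a45 were called and 8 had an adjusted p under 0.05. The calls for bdh2, scrn2 and tnfsf12 held in the fewest alternatives, 4 of 21, 5 of 20 and 4 of 18.

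Of the genes the study singles out by name, the perforin-1-like gene (LOC101465185) and the tstd1-like gene (LOC101468457) differed between the livers. The study names both for methylation and liver expression that set DL apart. It used liver RNA data of the same series, so the values below are not independent of that choice. Perforin forms pores in target cell membranes. The perforin-1-like gene was at 0.90, 0.88 and 11.2 TPM in DL and at 670 and 883 TPM in RL (-7.77 ± 0.71, adjusted p = 8.47e-05). The MZ and PG livers held 1168 to 3953 TPM, so DL alone was low. The tstd1-like gene, a predicted sulfurtransferase, was at 119, 67.1 and 150 TPM in DL and listed at 0 TPM in both RL livers (6.75 ± 0.34, adjusted p = 1.07e-06). It was also listed at 0 TPM in all MZ and PG livers. Each of these calls held in all alternatives, leave-one-out fits included. The cbr1-like carbonyl reductase gene (LOC101465189) was at 0.24, 2.34 and 8.18 TPM in DL and 0 and 0.58 TPM in RL (adjusted p = 0.435). The study names it for lower promoter methylation in MZ and PG, associated with higher levels there than in DL and RL. The MZ livers held 43.6 to 59.9 TPM and the PG livers 6.61 to 32.0 TPM, which overlapped DL.

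The transcription factor genes the study names overlapped between DL and RL. The hepatocyte master regulator hnf4a was at 41.2, 34.0 and 44.2 TPM in DL and 17.3 and 36.04 TPM in RL (0.64 ± 0.40, adjusted p = 0.508). The study's own contrast for hnf4a was a lower level in PG than in DL and RL. The PG livers held 5.63 to 10.1 TPM, below every DL and RL liver, and this contrast was not tested here. For klf9, a glucocorticoid-responsive factor, the values were 10.5, 9.32 and 23.9 TPM in DL and 4.92 and 11.6 TPM in RL (adjusted p = 0.639). The MAX partner mnt (0.22 ± 0.51, adjusted p = 0.872) and mitfb (0.45 ± 0.37, adjusted p = 0.61) lay under 10 TPM in all 5 livers. The direction of mnt turned with the scaling and with 2 of the libraries. The study reports these factor genes as differing among DL, PG and RL livers. PG livers held 52.7 to 73.3 TPM of klf9 and 6.62 to 12.2 TPM of mnt, above every DL and RL liver. For mitfb they held 0.29 to 0.40 TPM, below every DL and RL liver. These contrasts with PG were not tested here.

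Metabolic and secretory functions of liver were followed in 20 gene lists with 510 distinct tested members. An unadjusted p under 0.05 was found in 105 of them (20.6%, against 14.4% of all genes). Cytosolic ribosomal protein genes, of which 71 were tested, gave 55 of these 105. None of the 510 passed 0.01 in limma. Some were called at 0.01 in single alternatives, namely aass of lysine breakdown after quantile normalization and after median-ratio scaling, dio1 and srd5a1 without DL library 5, and fasn without RL library 24. At 0.05, 10 members passed (1.96%, against 2.78% of all genes), 7 higher in DL and 3 higher in RL. These 10 were named after their values were seen, and none kept an adjusted p under 0.05 throughout. It held in 19 of 21 alternatives for gstk1, 18 for dio1 and 17 for apob, but in only 3 (id1) to 8 (hlf) for the other 7.

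The median of the complement and coagulation genes lay on the DL side. Of 20 tested, 0 passed either threshold, 10 (50%, against 14.4% of all genes) had an unadjusted p under 0.05, and 19 (95%, against 72.4%) had a difference above 0, with a median of 0.96 against 0.29 for all genes. The fibrinogen beta chain fgb was at 9284, 7418 and 7508 TPM in DL and 2792 and 6226 TPM in RL (0.94 ± 0.32, adjusted p = 0.186), and fgg at 10219, 6970 and 7057 TPM in DL and 3180 and 4663 TPM in RL (1.05 ± 0.30, adjusted p = 0.107). The terminal complement component c8g was at 1253, 787 and 1164 TPM in DL and 343 and 391 TPM in RL (1.51 ± 0.37, adjusted p = 0.0531). Summed TPM of the list was 20512 to 27372 in DL livers and 9168 and 15243 in RL livers. It was 12213 to 19450 in MZ and 29385 to 33450 in PG, so PG and not DL lay highest. In 15 of the 20 genes every DL liver lay above both RL livers, which held for 25.2% of all genes tested, as did the summed hepatocyte markers, which include fgb and fgg and whose part in this result was not tested. The median of the list was 0.62 after quantile normalization, 0.63 after median-ratio scaling and 0.58 without the identical rows, and it was 0.56 without RL library 23.

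Of 14 lipoprotein genes, 1 passed 0.05. The gene was apob, the structural protein of secreted lipoproteins, at 311, 241 and 459 TPM in DL and 75.8 and 83.5 TPM in RL (2.02 ± 0.39, adjusted p = 0.0189), with MZ and PG at 21.5 to 61.1 TPM. Its adjusted p was 0.168 without RL library 23 and 0.101 without library 24. The list as a whole sat close to the background, with a median of 0.33. The most abundant member, apoc2, was at 2944, 2438 and 1451 TPM in DL and 1217 and 1750 TPM in RL (adjusted p = 0.534), and lipc overlapped too (adjusted p = 0.844).

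The median of fatty acid and triglyceride synthesis lay on the RL side. Of 21 genes tested, 1 passed 0.05, higher in RL, and 5 (23.8%, against 72.4% of all genes) had a difference above 0, with a median of -0.45. Fatty acid synthase, fasn, was at 0.44, 3.60 and 1.35 TPM in DL and 119 and 7.87 TPM in RL (-3.71 ± 0.86, adjusted p = 0.0447). The acetyl-CoA carboxylase gene acaca, one step upstream, was at 3.76, 5.36 and 5.61 TPM in DL and 22.9 and 12.4 TPM in RL (-1.62 ± 0.55, adjusted p = 0.184). The triglyceride synthesis gene dgat2 was at 12.4, 32.1 and 21.98 TPM in DL and 180 and 30.5 TPM in RL, so that RL library 24 fell within the DL range.

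The size of the fasn difference depended on a single library. RL library 23 held the highest value of the 5 livers in fasn, dgat2 and acaca, and without it the fasn difference was -1.83 rather than -3.71 (adjusted p = 0.322). The same library had the lowest summed hepatocyte markers and the highest summed exocrine pancreas markers of the 5. The pancreas sum was high mainly through cpb1, while pla2g1b was lower than in every DL liver. The part of either sum in this result was not tested. Of the most abundant members, plin2, which coats lipid droplets, was at 200, 47.9 and 50.1 TPM in DL and 29.5 and 236 TPM in RL (adjusted p = 0.972). The list median stayed below 0 in the other scalings, at -0.54, -0.53 and -0.73, and was -0.45 without RL library 23 and -0.26 without library 24.

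The cytosolic ribosomal protein genes lay on the DL side in nearly every case. Of 71 tested, 3 passed 0.05, all higher in DL, and 55 had an unadjusted p under 0.05, against 14.4% of all genes. A difference above 0 was found in 70 (98.6%, against 72.4% of all genes), and the list median was 0.79. In 66 of them every DL liver lay above both RL livers, which held for 25.2% of all genes tested. The acidic stalk protein rplp1 was at 2295, 2134 and 2569 TPM in DL and 1046 and 1110 TPM in RL (1.11 ± 0.25, adjusted p = 0.0372), and the small subunit genes rps12 and rps14 differed by 1.19 ± 0.27 and 1.25 ± 0.29 (adjusted p = 0.0428 and 0.0434). The list median was 0.34 after quantile normalization, 0.45 after median-ratio scaling and 0.39 without the identical rows, and all 3 calls were lost after median-ratio scaling and without the identical rows.

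In glucose metabolism 0 of 21 genes passed either threshold, and the list median was -0.14. The abundant glucose-6-phosphatase gene g6pc, the last step of glucose release, was at 1143, 1309 and 1896 TPM in DL and 200 and 511 TPM in RL (2.14 ± 0.52, adjusted p = 0.0526). By contrast pck1, an earlier step of glucose synthesis, overlapped widely, at 170, 194 and 830 TPM in DL and 12.5 and 808 TPM in RL. The glycolytic gapdh was at 2521, 3032 and 3891 TPM in DL and 1143 and 2311 TPM in RL (0.93 ± 0.37, adjusted p = 0.275).

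Hormone and clock genes gave a few single calls. The thyroid hormone deiodinase gene dio1 was at 0.97, 5.82 and 2.27 TPM in DL and 18.7 and 31.3 TPM in RL (-2.84 ± 0.53, adjusted p = 0.0158), with MZ and PG at 0.82 to 3.35 TPM, so that RL stood apart from all 3 others. It was the 1 of 17 growth axis genes at 0.05. Of the 17 differences 13 were above 0, near the 72.4% of all genes. The median of that list was 0.67 as deposited. It was 0.31 after quantile normalization, 0.34 after median-ratio scaling and 0.28 without the identical rows. The clock output factor hlf, the 1 of 11 clock genes at 0.05, was at 74.3, 54.8 and 121 TPM in DL and 14.8 and 18.04 TPM in RL (2.21 ± 0.51, adjusted p = 0.042), while the clock gene per1 overlapped (adjusted p = 0.933). The clock list had no common direction, with a median of -0.15 and 5 of 11 differences above 0. The hour at which each fish died is not given in the sources used here. Of 28 liver transcription factors, only id1, an inhibitor of helix-loop-helix factors, passed 0.05, at 215, 138 and 358 TPM in DL and 62.7 and 35.2 TPM in RL (2.20 ± 0.52, adjusted p = 0.0483).

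The last list members at 0.05 were of detoxification and heme synthesis. The glutathione transferase gene gstk1, 1 of 16 detoxification genes at 0.05, was at 28.1, 27.2 and 34.0 TPM in DL and 3.31 and 9.80 TPM in RL (2.17 ± 0.42, adjusted p = 0.0175). Its MZ and PG values, 24.6 to 34.1 TPM, lay with DL. The first enzyme of heme synthesis, alas1, 1 of 16 acute phase, iron and heme genes at 0.05, was at 16.5, 19.2 and 12.6 TPM in DL and 43.9 and 63.4 TPM in RL (-1.67 ± 0.40, adjusted p = 0.0491). In the same list transferrin, tf, was at 6138, 7408 and 12043 TPM in DL and 3526 and 4261 TPM in RL (1.08 ± 0.31, adjusted p = 0.108).

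**Figure D4:**
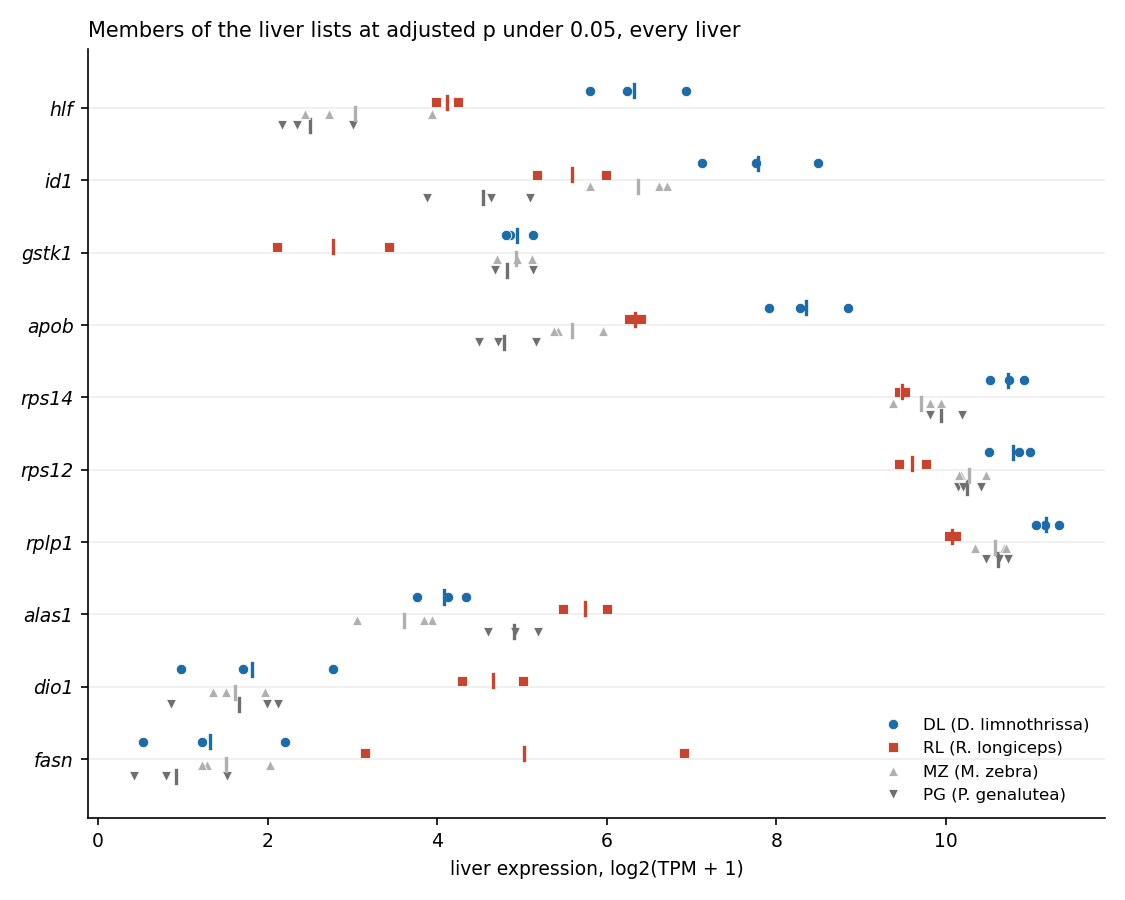
Liver expression, log2(TPM + 1), of the 10 list members at an adjusted p under 0.05, one marker per library and a vertical bar at each species mean, with species marked as DL blue circles, RL red squares, MZ light and PG dark grey triangles. The 2 RL markers of fasn lie far apart, at 119 and 7.87 TPM, while those of apob nearly coincide, at 75.8 and 83.5 TPM.

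In the remaining lists 0 members passed 0.05. Their medians were 0.39 for cholesterol synthesis (18 genes), 0.38 for the proteasome (34), 0.34 for amino acid breakdown (43), 0.31 for stress, hypoxia and glucocorticoid response (35), 0.28 for the respiratory chain (57) and 0.26 for fatty acid oxidation (28). These medians lay close to the 0.29 of all genes. Bile acid and sterol export (8 genes) had a median of 0.21, protein folding and export in the endoplasmic reticulum (46) of 0.11, and interferon and innate response (14) of 0.02. Of the cell division genes only 4 of 31 were expressed enough to be tested, with a median of -0.16.

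**Figure D5:**
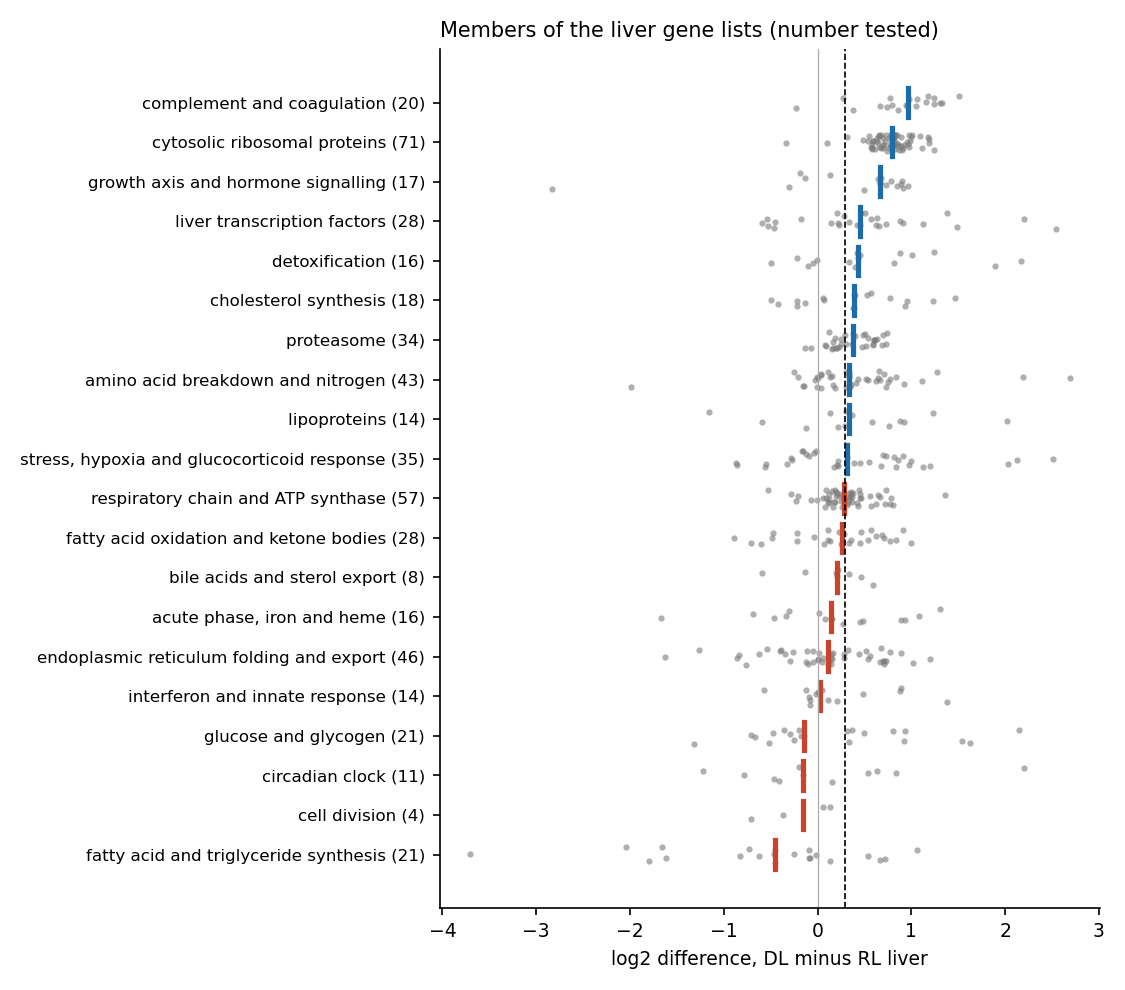
Log2 difference, DL minus RL, of every tested member of the 20 liver lists, one grey point per gene, with the number tested in brackets. The thick bar is the list median, blue where above and red where below the median of all genes (dashed line at 0.29). Complement and coagulation (0.96) and ribosomal proteins (0.79) lie highest, fatty acid and triglyceride synthesis (-0.45) lowest.

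In amino acid breakdown the abundant genes tat and tdo2 varied within DL. The tyrosine aminotransferase gene tat was at 359, 1167 and 2158 TPM in DL and 196 and 228 TPM in RL (2.19 ± 0.66, adjusted p = 0.126), and the tryptophan dioxygenase gene tdo2 at 558, 982 and 1214 TPM in DL and 334 and 829 TPM in RL (adjusted p = 0.528). In both genes the 3 DL livers themselves differed more than 2-fold, and neither difference passed.

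Muscle of the same species served to ask whether the differences were shared between tissues. The paper describes both tissues as taken from the same fish, so muscle is not a set of independent animals. In 3 DL and 3 RL muscles, 102 of 15843 genes tested (0.644%) differed at 0.01, and 447 (2.82%) at 0.05. Of the 159 genes called in liver, 82 were expressed enough in muscle to be tested there, 11 of which repeated the liver values of another. Of the 82, 4 were called in muscle, all in the direction seen in liver. At 0.05, 7 were called, also in the direction seen in liver. Of the 16 genes with a symbol 13 were tested in muscle, 0 were called at 0.01 and nthl1 at 0.05.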

How the data were processed

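Total RNA of homogenised liver and muscle was depleted of ribosomal RNA and sequenced by the authors as stranded libraries. Reads were trimmed with Trim Galore and quantified by the authors with kallisto against the M. zebra transcriptome (UMD2a), for all species, and the deposited TPM are per gene; the tool that summed transcripts is not given in the sources used here, nor were reads behind a value, so that precision rests on the spread between fish. Divergence of DL or RL from that reference was not tested.

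Values were taken as log2(TPM + 1), keeping genes that reached 1 TPM in 2 or more DL or RL libraries, and fitted with limma 3.58.1 (R 4.3.3; all 11 livers, 4 species, variance trend), DL minus RL, with Benjamini-Hochberg adjustment over all genes tested; muscle (12 libraries) likewise. Calls were made at 0.01 and, more loosely, 0.05. Log2 differences are on that scale, which understates low genes, whereas fold values on the means are ratios of mean TPM. An exact permutation test of 3 against 2 livers cannot go below a one-sided p of 0.1, so none was used. Columns were assigned to a species by their names; they show no replicate number of the labels, and are called by their own numbers. The 8 columns of the authors' species means were not used.

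Named were, among called genes without overlap and with a mean of at least 10 TPM in the higher species, up to 12 per direction with a symbol and 2 without, called list members, up to 2 abundant uncalled members of a list, and genes named by the study; all others were named after their values were seen. Unnamed genes at 0 TPM in one species were counted only. The members and lists were chosen with earlier results of these data known. Table symbols were matched to the lists by name, and 12 rows with a plain number for a symbol were kept. Methylation files were not used. Alternatives were other pseudocounts (0.1, 0.5), filters, scalings, thresholds and fits, and leaving out each library. Figures were drawn with matplotlib 3.10.9.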

Additional observations from a re-analysis of the deposited data

Results flagged for a closer look

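For pde1b and acsl6 the DL and RL libraries were separated in both tissues but in opposite directions. Such separation was common, at 31.3% of the genes tested in liver and 23.5% of those tested in muscle. The log2 difference of the phosphodiesterase gene pde1b was -2.49 in liver, where both RL livers lay above every DL liver, and 0.50 in muscle, where every DL muscle lay above every RL muscle. That of acsl6, a long-chain acyl-CoA synthetase, was -2.09 in liver and 0.98 in muscle. Whether the tissues differ was not tested, and neither muscle difference passed in limma (adjusted p = 0.349 and 0.0621).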

How the results depend on the processing

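No paired analysis was possible because the columns carry no replicate numbers of the labels. The 159 liver genes became 101 with a pseudocount of 0.1, 97 with a mean of at least 5 TPM, 59 in the fit of DL and RL alone, 401 at 0.05 and 52 with a difference of at least 50 TPM; leaving out each library gave 29 to 198, the lowest without RL library 23. At 0.05 the 401 genes became 230 with a mean of at least 5 TPM and 186 in the fit of DL and RL alone, and 82 to 479 with a library left out. The 102 muscle genes became 63, 51, 47, 447 and 13 in the same order as the liver alternatives, and 53 to 99 with a library left out. Shared with the 159 genes were 88 with the pseudocount of 0.1, 135 after quantile normalization, 126 after median-ratio scaling, 54 in the fit of DL and RL alone, 27 without RL library 23 and 37 without library 24. The share of called genes higher in DL was 33.6% without a filter on low values. The direction of mnt turned to -0.0201 after quantile normalization, -0.00866 after median-ratio scaling and -0.0386 without the identical rows, and leaving out each library gave -0.52 (without RL library 23) to 0.96. Leaving out the identical rows, and counting them once (148 genes), were chosen after seeing the data. With 2 RL livers, and with genes near 1 TPM, differences under about 1 on the log2 scale were seldom detectable: the smallest called one was 1.28.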

Other observations

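The most abundant gene with a symbol in both species was polr1b, a subunit of RNA polymerase I, at 21366, 34584 and 31622 TPM in the DL livers and 29271 and 17715 TPM in the RL livers. It lay above transferrin and both fibrinogen genes in every one of these livers, and was as high in muscle, at 18360 to 32637 TPM in DL and RL. Whether all reads assigned to this row came from polr1b was not tested, so the values are not read as the level of that gene.

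Including the 10 list members above, 39 genes with a symbol differed at an adjusted p under 0.05 but not 0.01, 28 higher in DL and 11 higher in RL. Among them the secreted glutathione peroxidase gpx3 was at 230, 210 and 256 TPM in DL and 24.9 and 62.2 TPM in RL (2.52 ± 0.48 SE, adjusted p = 0.0158), with MZ and PG at 41 to 301 TPM. The EGF receptor inhibitor errfi1 was at 103.6, 36.3 and 136 TPM in DL and 2.95 and 14.1 TPM in RL (3.39 ± 0.81, adjusted p = 0.0497). The asparaginase gene aspg was at 50.9, 48.8 and 186 TPM in DL and 11.4 and 11.8 TPM in RL (2.64 ± 0.53, adjusted p = 0.0224). These were named after their values were seen.

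The transcriptional regulator akna lay just beyond 0.01 in liver (2.13 ± 0.37, adjusted p = 0.01) and was called in muscle (1.21, adjusted p = 0.00606), higher in DL in both tissues.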
